A study of Homo sapiens with 39 samples.

Results

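The genes described here are membrane transporters of organic anions and cations, monocarboxylates, fatty acids, bile acids, nucleosides and some vitamins. They were taken by gene name from the families SLC10A, SLC13A, SLC15A, SLC16A, SLC17A, SLC19A, SLC22A, SLC23A, SLC27A, SLC28A, SLC29A, SLC47A and SLCO, with SLC51B. The names matched 96 of the 45435 genes listed in every table, and 43 of these had a mean of at least 1 TPM (a length-corrected abundance whose sum is the same in each library) over the 39 libraries. The other 53 were under a mean of 1 TPM and stood outside the tests.

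All cells were HCT116, a human colorectal cancer line, carrying the Flp-In T-REx system, in which doxycycline switches on a gene placed at 1 fixed site of the genome. Parental cells held no HNF4A construct, and each of 12 lines held 1 isoform of hepatocyte nuclear factor 4 alpha (HNF4A), numbered 1 to 12 and fused to GFP at its C-terminal end. Every group received 2.5 µg/ml doxycycline for 48 h without selection antibiotics, had 3 libraries, and is 1 cell line. Blasticidin had been in the medium of all cells until then, together with zeocin for the parental cells and hygromycin B for the lines. A control making only GFP is not among the groups, so the isoform cannot be told apart from GFP, the past antibiotic or the derivation of a line. Nothing in the labels says whether the libraries of a group came from separate cultures, so p-values measure the spread between these libraries.

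Solute carriers move their substrates through the membrane down a gradient or coupled to an ion. The SLC16A monocarboxylate transporters carry lactate and pyruvate with a proton, the SLC27A proteins (fatty acid transport proteins) take up long-chain fatty acids and activate them with coenzyme A, and the SLC22A, SLC47A and SLCO families carry organic ions, among them bile acids, hormone conjugates and drugs. HNF4A is a nuclear receptor of liver, kidney and gut, tissues in which several of these carriers are known to be expressed under its control. By standard nomenclature, which the labels do not give, isoforms 1-6 start from the P1 promoter and 7-12 from P2, isoforms 4-6 hold a different N-terminal exon, isoforms 2, 5, 8 and 11 hold a short insertion near the C-terminus, and isoforms 3, 6, 9 and 12 have a shortened C-terminus.

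The transporter with the largest change was SLCO2B1 (ENSG00000137491.14, chromosome 11, 75100563 to 75206549, GRCh38, plus strand), an uptake carrier of steroid sulfates and drugs in liver and gut. RefSeq lists several start sites for it, and 2 of its upstream windows are printed because 1 holds the letters searched as an HNF4A-type motif. Each line is the 250 bases before a start site, 5′ to 3′ on the plus strand of GRCh38.p14, in lower case, with a motif match in capitals.
SLCO2B1 window chr11:75150857-75151106: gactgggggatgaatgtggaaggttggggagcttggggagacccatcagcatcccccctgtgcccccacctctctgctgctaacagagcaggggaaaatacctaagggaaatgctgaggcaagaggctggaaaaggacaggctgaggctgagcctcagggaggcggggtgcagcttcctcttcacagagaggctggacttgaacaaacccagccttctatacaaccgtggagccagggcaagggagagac
SLCO2B1 window chr11:75159582-75159831: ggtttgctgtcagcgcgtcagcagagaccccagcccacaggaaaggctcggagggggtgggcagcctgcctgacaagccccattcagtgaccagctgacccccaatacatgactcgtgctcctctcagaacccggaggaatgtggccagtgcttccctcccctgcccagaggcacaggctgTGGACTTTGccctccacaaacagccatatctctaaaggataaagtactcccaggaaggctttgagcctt
The capitals in the second window are CAAAGTCCA read on the other strand, 69 bases before that start site. The search covered CAAAGTCCA and CAAAGGTCA on both strands, from 250 bases before to 50 bases after each start site. Of 35116 windows of all genes 278 (0.792%) held a match, and of the 88 windows found for 68 of the 96 transporters 2 (2.27%) did. The other match was in SLC22A10, whose highest library was at 0.0221 TPM. In these windows SLC27A4 and SLC47A2 had no match. For SLC22A18, which is also described below, no window was found, so it was not searched. A match is a description of the letters and not of binding, and no match says only that these letters are not in this window.

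Across the 39 libraries, between 27884 and 30550 genes were above 0 TPM, and no pair of libraries was identical. HNF4A was at 31.5 TPM ± 0.589 (SD, n = 3) in parental cells and had group means of 614 to 1070 TPM in the lines. Replicate 1 of isoform 3 stood apart, at 407 TPM of HNF4A against 833 and 772 in the other libraries of its line, and results of isoform 3 are given with it and, where it matters, without it. The epithelial genes EPCAM, KRT8, KRT18, KRT19 and CDH1 had means of 33.8 to 1490 TPM and the intestinal factor CDX2 13 TPM, while KRT20 was at 0.842 and CDX1 at 0.0132 TPM. Of the genes fixed for other cell types, COL1A2, DCN, PTPRC and CD3E had means of at most 0.0548 TPM, VWF 0.284 and ALB 0.409, but COL1A1 stood at 11.3 and PECAM1 at 2.88 TPM, the latter highest in isoform 1 at 5.75. The part of such genes in the results was not tested.

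The families differed in how many members reached a mean of 1 TPM over the 39 libraries. All 6 SLC27A, all 4 SLC29A and both SLC47A members did, as did 10 of 14 SLC16A, 4 of 7 SLC10A, 2 of 3 SLC19A, 2 of 3 SLC23A, 6 of 22 SLC22A, 3 of 12 SLCO, 2 of 9 SLC17A, 1 of 5 SLC13A, 1 of 5 SLC15A and none of 3 SLC28A members. SLC51B, the beta subunit of the basolateral bile acid exporter, was under 1 TPM. In parental cells alone, SLC47A1, SLC47A2 and SLCO2B1 were below 1 TPM, at 0.8, 0.438 and 0.0348, and these 3 passed the filter only through lines in which they are high. In all, 4 transporters had a mean of at least 50 TPM, 17 lay from 10 to 50 and 22 from 1 to 10. The highest were the lactate carriers SLC16A3 (MCT4) at 127 TPM and SLC16A1 (MCT1) at 104, followed by the nucleoside carrier SLC29A1 (ENT1) at 70.9 and the fatty acid transport protein SLC27A4 (FATP4) at 67.4. TPM is scaled per transcript length, so these levels may be compared between genes.

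**Figure D1:**
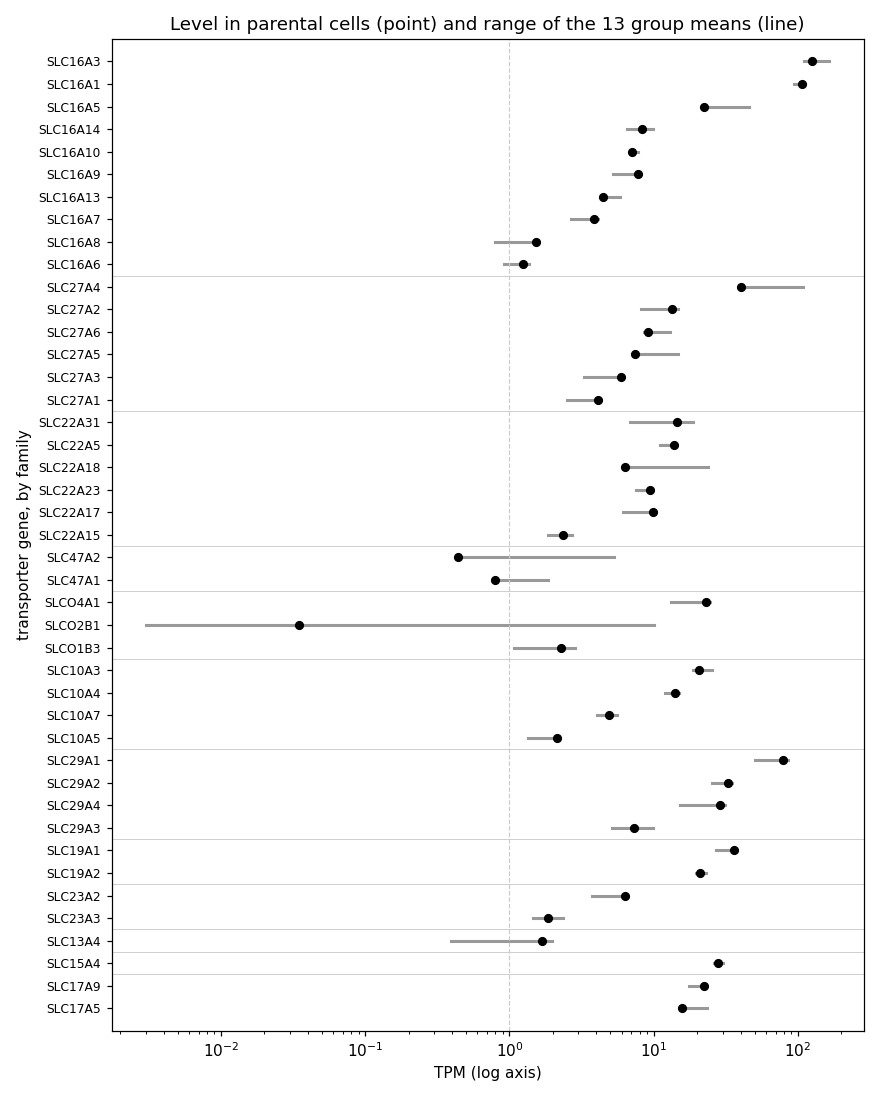
TPM on a log axis for the 43 transporters with a mean of at least 1 TPM, grouped by family. The point is the mean of the 3 parental libraries and the line spans the lowest to the highest of the 13 group means; SLCO2B1 spans the widest range, from 0.00301 TPM in isoform 6 to 9.98 TPM in isoform 1, while SLC16A1 stays between 94.2 and 112 TPM.

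Each line was compared with the parental cells to ask which transporters change when 1 HNF4A isoform is made. Calls needed a limma adjusted p under 0.05 (Benjamini-Hochberg) and a log2 fold change of 1 or more in size on the log2(TPM + 1) scale, where changes at low TPM come out too small. Only 4 of the 43 tested transporters were called in any line, in 17 gene and line pairs, all of them higher: SLCO2B1, SLC47A2, SLC22A18 and SLC27A4. Isoforms 1 and 2 had 4 called each, isoform 3 had 1 (SLC22A18), and isoforms 7, 8, 10 and 11 had 2 each (SLCO2B1 and SLC47A2). No transporter was called in isoforms 4, 5, 6, 9 and 12, where 13, 12, 9, 17 and 14 had an unadjusted limma p under 0.05. The share of all tested genes at an unadjusted p was not taken, so these numbers are no result about the transporters.

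Beside the counts of calls, the share of all 15003 tested genes called in either direction was 4.52%, 3.73%, 0.807%, 0.54%, 0.293% and 0.247% for isoforms 1 to 6 in that order. For isoforms 7 to 12 it was 2.08%, 1.41%, 0.827%, 1.44%, 1.7% and 0.573%. The 4 transporters called in isoforms 1 and 2 are 9.3% of the 43 tested, the 2 of isoforms 7, 8, 10 and 11 are 4.65%, and the 1 of isoform 3 is 2.33%. Calls of SLCO2B1 and SLC47A2, which passed the filter only through the lines, are no support for the set as a whole. Without these and SLC47A1, 2 of 40 (5%) were called in isoforms 1 and 2 and 0 in isoforms 7, 8, 10 and 11. All 12 comparisons use the same 3 parental libraries. In the authors' deposited tables, pairs of tested transporters numbering 29 met the same threshold and minimum, on the authors' own scale: these 17, all higher there too, and 12 others. Of the 12, 10 were higher (SLC27A4 in isoforms 3, 7 and 11, SLC16A5 and SLC27A5 in isoform 1, SLC47A1 in isoforms 1 and 2, SLC47A2 in isoforms 3 and 9, and SLCO2B1 in isoform 3). The other 2 were lower in the authors' deposited tables, SLC13A4 at -1.05 in isoform 1 and -1.69 in isoform 2.

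**Figure D2:**
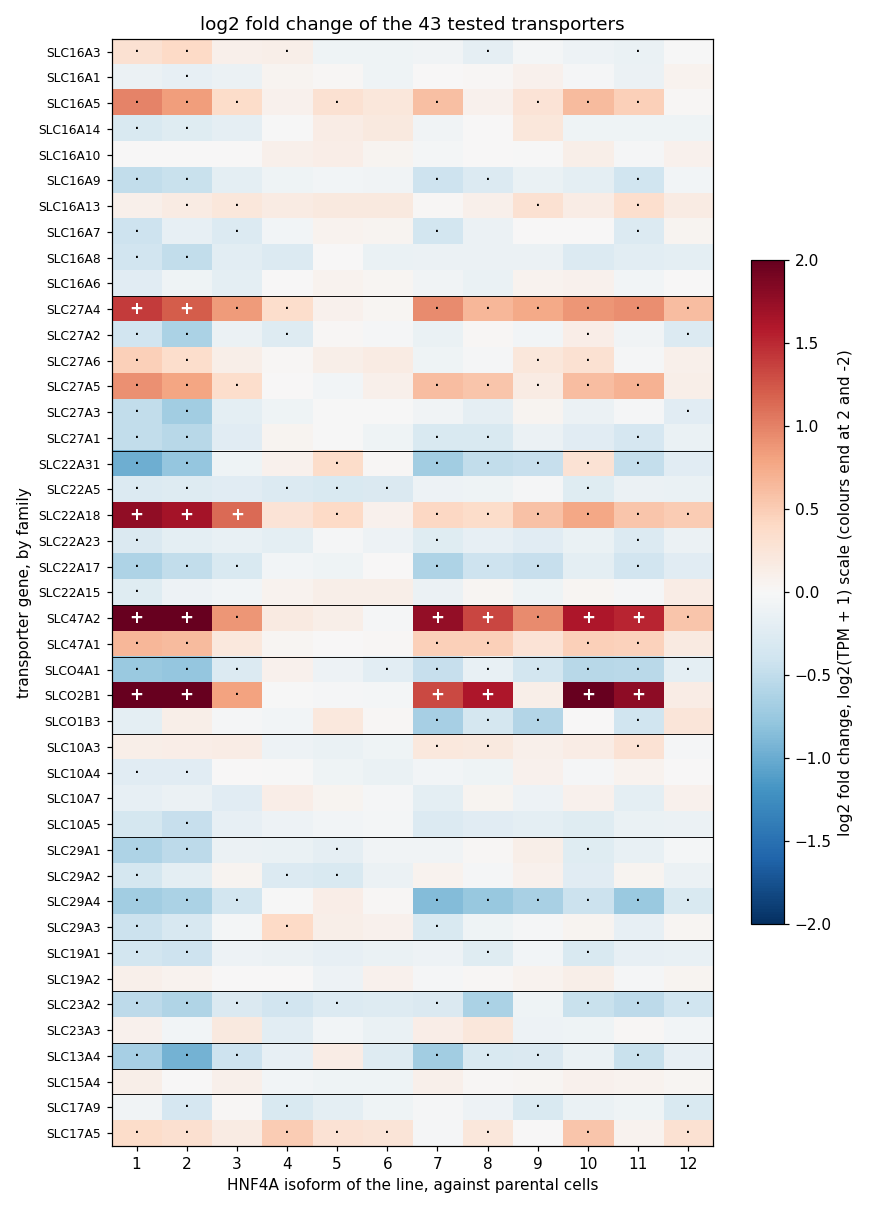
log2 fold change of the 43 tested transporters (rows, by family) in the 12 lines (columns) against parental cells, on the log2(TPM + 1) scale. A white plus marks a called pair and a dot a pair with an adjusted p under 0.05 and a smaller change; the 17 plus signs fall in 4 rows and none stands in the columns of isoforms 4, 5, 6, 9 and 12.

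SLCO2B1 (OATP2B1) was close to absent from parental cells, with 0.0537, 0.0167 and 0.0341 TPM. Its libraries had 11.3, 7.98 and 10.7 TPM in isoform 1 and 10.7, 8.29 and 10.1 in isoform 2. Among the P2 lines it had 5.06, 3.26 and 4.2 TPM in isoform 10, 3.11, 2.37 and 2.28 in isoform 11, 2.26, 2.16 and 2.15 in isoform 8 and 2.14, 1.42 and 1.25 in isoform 7. These 6 lines did not overlap with the parental cells or with the remaining lines. The short C-terminus lines were lower, with 0.399, 0.892 and 1.19 TPM in isoform 3, 0.119, 0.199 and 0.118 in isoform 12 and 0.0768, 0.107 and 0.189 in isoform 9. Isoforms 4, 5 and 6 had at most 0.0491 TPM in any library, and 2 libraries of isoform 6 were listed at 0.

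On the log2(TPM + 1) scale SLCO2B1 was called higher by 3.39 ± 0.138 (SE, n = 3) in isoform 1 (limma adjusted p = 1.04e-18) and by 3.37 in isoform 2 (adjusted p = 1.74e-18). The rise was 2.31 (isoform 10), 1.79 (isoform 11), 1.62 (isoform 8) and 1.32 (isoform 7), the largest of these limma adjusted p being 4.81e-09. Isoform 3 had 0.8 (adjusted p = 6.47e-05), below the minimum change. In isoforms 9 and 12 all 3 libraries lay above the 3 parental ones, but the fold changes of 0.12 and 0.15 did not pass (limma adjusted p = 0.598 and 0.54). The size depends on the pseudocount: with 0.1 TPM in place of 1, the isoform 1 value is 6.22 and isoform 3 is called at 2.69.

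SLC47A2 (MATE2, ENSG00000180638.17, chromosome 17, 19678288 to 19718979, minus strand) exports organic cations in exchange for protons, and is known from kidney. Parental libraries had 0.428, 0.479 and 0.408 TPM. The isoform 1 libraries had 5.61, 5.58 and 4.84 TPM, those of isoform 2 had 5.31, 4.66 and 4.51, and those of isoform 7 had 3.45, 3.33 and 4.93. Isoforms 10, 11 and 8 followed with means of 3.4 ± 0.198, 3.13 ± 0.503 and 2.63 ± 0.405 TPM (SD, n = 3). Every library of these 6 lines was at 2.29 TPM or above, against at most 0.68 TPM in the parental cells and isoforms 4-6.

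SLC47A2 rose by 2.14 ± 0.123 (SE, n = 3) in isoform 1 and 2.02 in isoform 2 on the log2 scale, with limma adjusted p of 3.7e-15 and 1.85e-14. The rises in isoforms 7, 10, 11 and 8 were 1.75, 1.61, 1.52 and 1.33 (largest limma adjusted p = 8.29e-10). The short C-terminus lines of isoforms 9, 3 and 12 were higher by 0.95, 0.89 and 0.56, with adjusted p of 7.7e-07, 2.54e-06 and 0.002, short of the minimum change. Without replicate 1 of isoform 3, SLC47A2 was called there as well, at 1, and with a pseudocount of 0.1 it was called in isoforms 3, 9 and 12.

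Its neighbour SLC47A1 (MATE1, ENSG00000142494.13, chromosome 17, 19495385 to 19579034, plus strand), the cation exporter of liver and kidney, was at 0.779, 0.828 and 0.793 TPM in parental cells. It had 2.05, 1.87 and 1.63 TPM in isoform 1 and 1.98, 1.54 and 1.92 in isoform 2. Its log2 fold changes were 0.66 and 0.64 in these lines, and 0.46 to 0.48 in isoforms 7, 8, 10 and 11, each with a limma adjusted p under 0.05 under the alternatives in which it was tested. It entered the test through these lines, being under 1 TPM in parental cells. In isoforms 4-6 it was within 0.04 of the parental level. With a pseudocount of 0.1 TPM it was called in isoforms 1 and 2, at 1.11 and 1.08.

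SLC22A18 (ENSG00000110628.14, chromosome 11, 2899721 to 2925246, plus strand) belongs to the organic cation carriers and lies in an imprinted region. Parental libraries had 5.63, 6.71 and 6.58 TPM. They rose to 24.9, 22.5 and 24.4 TPM in isoform 1, to 20.2, 22.4 and 24.4 in isoform 2 and to 11.6, 17.1 and 16.9 in isoform 3, where the lowest value is that of replicate 1. The isoform 1-3 libraries were above those of isoforms 4-8, 11 and 12. Isoform 10 had 10.9, 11.3 and 12.1 TPM and isoform 9 8.75, 9.12 and 12.4, and their highest libraries overlap only with replicate 1 of isoform 3.

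The log2 fold change of SLC22A18 was 1.77 ± 0.126 (SE, n = 3) in isoform 1, 1.67 (isoform 2) and 1.13 (isoform 3), with limma adjusted p of 4.42e-13, 2.1e-12 and 4.83e-08. Another 7 lines (5 and 7 to 12) were higher by 0.36 to 0.77 at an adjusted p under 0.05, of which isoforms 9, 10 and 11 stayed there under every alternative. Leaving out 1 library took the adjusted p above 0.05 in isoforms 5, 7, 8 and 12. Isoforms 4 and 6 did not pass (adjusted p = 0.14 and 0.773). SLC22A18AS (ENSG00000254827.5), read from the opposite strand, overlaps the start of the gene. It went from 0.325 TPM in parental cells to 2.38 (isoform 1), 2.36 (isoform 2) and 1.24 (isoform 3). The library kit kept strand, but whether the quantification used strand is not given in the sources used here, so reads of the pair may not be told apart.

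SLC27A4 (FATP4, ENSG00000167114.12, chromosome 9, 128340646 to 128361470, plus strand), the main fatty acid transport protein of the small intestine, was already well expressed. Parental libraries had 40.4, 40.2 and 39.6 TPM. Isoform 1 had 112, 104 and 108 TPM and isoform 2 had 92.4, 95 and 94.5, above all other libraries. In the isoform 3 line, replicates 2 and 3 had 79.5 and 78.3 TPM and replicate 1 had 62.9. The 6 P2 lines had means of 62 to 78.1 TPM, isoform 4 had 51.4 ± 2.45 (SD, n = 3), and isoforms 5 and 6 had 42.3 and 41.2.

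The change of SLC27A4 was 1.4 ± 0.0559 (SE, n = 3) on the log2 scale in isoform 1 and 1.21 in isoform 2, with limma adjusted p of 6.46e-19 and 2.5e-17. It was 0.95 (isoform 7), 0.93 (isoform 11), 0.89 (isoform 10), 0.85 (isoform 3), 0.76 (isoform 9), 0.67 (isoform 8), 0.62 (isoform 12) and 0.35 (isoform 4), all below the minimum change and all with a limma adjusted p of at most 3.48e-05. In isoforms 5 and 6 it was 0.08 and 0.04 (adjusted p = 0.423 and 0.737). With median-of-ratios scaling the isoform 7 value becomes 1.01 and is called.

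**Figure D3:**
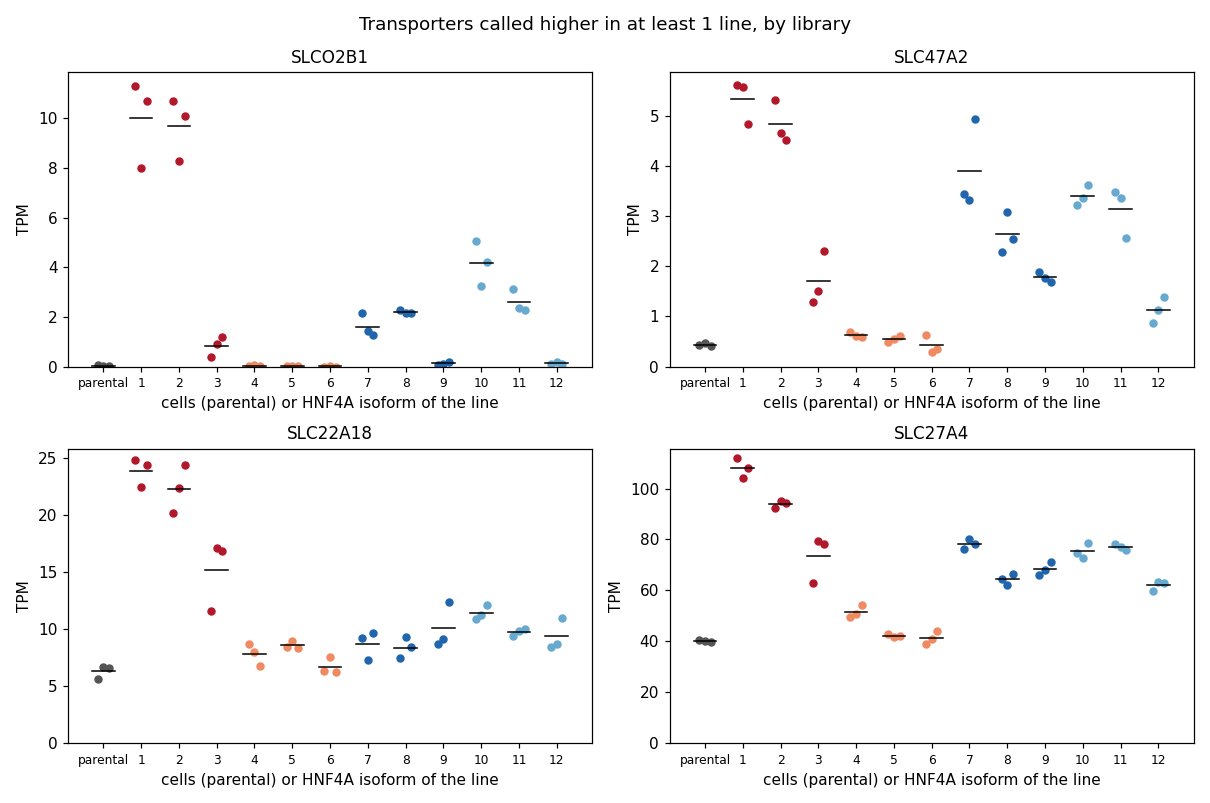
TPM of SLCO2B1, SLC47A2, SLC22A18 and SLC27A4 in each of the 39 libraries, by group, with a bar at the mean of 3. Red marks isoforms 1-3, orange 4-6, dark blue 7-9 and light blue 10-12; isoforms 1 and 2 are highest in each panel, and isoforms 4-6 stay near the parental libraries, although in isoforms 4 and 5 all 3 libraries lie above them for SLC27A4, SLC22A18 and SLC47A2, with an adjusted p under 0.05 for SLC27A4 in isoform 4 and SLC22A18 in isoform 5.

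To compare classes of isoform, limma was fitted to the 12 line means with 1 term for the N-terminal and 1 for the C-terminal form, so that the line and not the library is the unit. Between isoforms 4-6 and isoforms 1-3, 3 transporters were called, against 1.95% of all tested genes. SLCO2B1 and SLC47A2 entered this test only through the lines in which they are high, and without the 3 transporters under 1 TPM in parental cells 1 of 40 (2.5%) was called, SLC22A18. SLCO2B1 was lower in isoforms 4-6 by a log2 difference of -2.55 ± 0.433 (SE; adjusted p = 0.00398). SLC47A2 differed by -1.59 ± 0.194 (adjusted p = 0.0012) and SLC22A18 by -1.28 ± 0.141 (adjusted p = 0.000816). SLC27A4 lay at the threshold, at -1 ± 0.0876 with a limma adjusted p of 0.000265, and was not called.

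Between isoforms 7-9 and isoforms 1-3, 1 transporter was called, against 0.52% of all tested genes: SLC22A18 was lower in isoforms 7-9, by -1.07 ± 0.141 (limma adjusted p = 0.00509). That call was lost when the line of isoform 1, 2, 7 or 8 was left out, and without the filter on low values. SLCO2B1 differed by -1.5 ± 0.433 in this contrast (adjusted p = 0.0541) and SLC47A2 by -0.34 ± 0.194 (adjusted p = 0.264). No transporter was called between isoforms 10-12 and 7-9 (0% of all tested genes), between insertion isoforms and the forms without insertion (0%), or between short C-terminus isoforms and the others (0.00667%), with 3, 1 and 11 transporters at an unadjusted limma p under 0.05. For these 3 numbers too, the share of all tested genes was not taken. For the short C-terminus, SLCO2B1 had a difference of -1.47 ± 0.325 (adjusted p = 0.111) and SLC47A2 one of -0.74 ± 0.146 (adjusted p = 0.102). Without the line of isoform 6, SLCO2B1 was called lower in the short C-terminus class, at -1.95. SLCO2B1 and SLC47A2 entered these tests too only through lines in which they are high. For SLCO2B1 none of these lines has the short C-terminus, so a lower value in that class was built into its being tested. The differences of both genes are descriptions and no support for a difference between classes.

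Most changes among the transporters were smaller than the minimum. At an adjusted p under 0.05 with no minimum change, 196 gene and line pairs passed, 134 of them under every alternative run. SLCO2B1, SLC47A2 and SLC47A1, which passed the filter through the lines, are among those higher in isoforms 1, 2, 7, 8, 10 and 11. In isoform 1, 10 transporters were higher and 21 lower, beside 19.8% and 38.7% of all tested genes. In isoform 2 these were 11 and 20, beside 19.7% and 35.6%, and in isoform 3 they were 7 and 6, beside 11.2% and 14.7%. Isoform 4 had 4 higher and 5 lower (6.26% and 10.1% of all genes), isoform 5 had 4 and 4 (9.57% and 5.22%) and isoform 6 had 1 and 2 (5.94% and 4.13%).

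Among the P2 lines, isoform 7 had 8 higher and 12 lower (13.4% and 26.2% of all genes), isoform 8 had 8 and 11 (16.9% and 17.5%), isoform 9 had 7 and 7 (10.9% and 11.8%), isoform 10 had 11 and 6 (17% and 20.4%), isoform 11 had 9 and 12 (14.5% and 24%) and isoform 12 had 4 and 6 (7.92% and 6.65%). The median log2 fold change of the 43 transporters was -0.23 (isoform 1) and -0.173 (isoform 2), where the medians of all tested genes were -0.107 and -0.0899, and between -0.084 and -0.000301 in the other lines. Median-of-ratios scaling moved the median of all genes to -0.00706 (isoform 1) and -0.00926 (isoform 2). With that scaling the split of higher to lower transporters became 13 to 15 in isoform 1, 11 to 6 in isoform 3, 5 to 2 in isoform 4 and 2 to 2 in isoform 6. The shares of all tested genes higher and lower with that scaling were not taken, so these splits are no result about the transporters.

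Among the monocarboxylate carriers, SLC16A5 (MCT6), a drug and organic anion carrier of kidney and gut, moved most. Parental libraries had 23.2, 22.1 and 22.1 TPM, isoform 1 had 49.6, 45.6 and 42.1, and isoform 2 had 44.3, 42.1 and 37.3. The isoform 1 and 2 libraries were above those of the other groups. Its log2 fold change was 0.99 ± 0.0781 (SE, n = 3) in isoform 1 (limma adjusted p = 4.42e-12), 0.84 (isoform 2), 0.64 (isoform 10) and 0.6 (isoform 7). It passed the adjusted p in 8 lines, all higher, and in 7 of them under every alternative. The isoform 1 value crosses the minimum with median-of-ratios scaling (1.1), with a pseudocount of 0.1 (1.02), and without parental replicate 1 or isoform 1 replicate 3.

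SLC16A3 (MCT4), which releases lactate from glycolytic cells, had 125, 126 and 124 TPM in parental cells, 160, 148 and 156 in isoform 1 and 157, 167 and 171 in isoform 2. Neither line overlapped with the parental libraries, and the log2 fold changes were 0.3 and 0.4 (limma adjusted p = 1.5e-07 and 1.32e-09). In isoform 8 it was lower, at 110, 105 and 115 TPM, a change of -0.18 (adjusted p = 0.000687). SLC16A1 (MCT1), the lactate and butyrate carrier of colon cells, had group means of 94.2 to 112 TPM and passed only in isoform 2, at -0.17 (adjusted p = 0.00815), and not under every alternative. The remaining tested members had lower means: SLC16A14 8.07, SLC16A10 (TAT1, aromatic amino acids) 7.24, SLC16A9 (carnitine efflux) 6.62, SLC16A13 5.09, SLC16A7 (MCT2) 3.51, SLC16A8 (MCT3) 1.24 and SLC16A6 1.19 TPM. SLC16A9 was lower in 5 lines (-0.5 on the log2 scale in isoform 1), and in isoforms 1, 2, 7 and 11 under every alternative. SLC16A10 and SLC16A6 passed in no line.

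The fatty acid transport proteins moved in opposite directions within the family. Besides SLC27A4, SLC27A5 (FATP5, also the bile acid CoA ligase of liver) had 7.58, 7.1 and 7.41 TPM in parental cells, 14.5, 14.6 and 14.9 in isoform 1 and 13.5, 13.3 and 13.6 in isoform 2. These are log2 fold changes of 0.91 ± 0.0622 and 0.79 ± 0.0622 (SE, n = 3; limma adjusted p = 2.12e-13 and 5.77e-12). SLC27A5 was higher in 8 lines, from 0.17 in isoform 9, which did not hold under every alternative, to 0.91, and with median-of-ratios scaling it was called in isoform 1 at 1.01. SLC27A6 (FATP6), with a mean of 10.2 TPM, was higher by 0.47 (isoform 1), 0.35 (isoform 2) and 0.31 in isoform 10 (largest limma adjusted p = 0.00018).

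Lower values were found for SLC27A2 (FATP2, the very long-chain acyl-CoA synthetase of liver and kidney), SLC27A3 and SLC27A1 (FATP1, known from muscle and fat). SLC27A2 went from a mean of 13.3 TPM in parental cells to 8.23 in isoform 2, a log2 fold change of -0.63 (limma adjusted p = 3.41e-11), and was also lower in isoforms 1, 4 and 12. In isoform 10 it was higher, at 14.7 TPM and 0.14 (limma adjusted p = 0.0465), which did not hold under every alternative. SLC27A3 went from 5.95 to 3.27 TPM in isoform 2, a change of -0.7 (adjusted p = 2.04e-09), and was -0.5 in isoform 1. SLC27A1 went from 4.1 to 2.49 TPM in isoform 2, a change of -0.55 (adjusted p = 2.1e-05), and was -0.5 in isoform 1. In both isoform 1 and isoform 2, 3 of the 6 family members were higher and 3 lower, with and without median-of-ratios scaling. Without that scaling, 19.8% of all tested genes were higher and 38.7% lower in isoform 1, and 19.7% and 35.6% in isoform 2. With that scaling the shares were not taken.

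The equilibrative nucleoside carriers (SLC29A) had more lower than higher values. Among all tested genes at an adjusted p under 0.05, lower values were also more common in isoforms 1-4 and 7-11. In isoform 1 these were 38.7% lower against 19.8% higher, and in isoforms 5, 6 and 12 higher values were more common. SLC29A4 (PMAT), which carries monoamines and organic cations, had 28.1, 28 and 29.8 TPM in parental cells and 15.5, 14.8 and 15.5 in isoform 7. Its libraries had 16.6, 17.3 and 16.2 TPM in isoform 11, 16.6, 15.9 and 17.1 in isoform 8, and 18.6, 17.4 and 15.8 in isoform 1. None of these overlaps with the parental libraries. The log2 fold change was -0.87 ± 0.0717 (SE, n = 3) in isoform 7 (limma adjusted p = 3.95e-11), -0.76 (isoform 8), -0.74 (isoform 11), -0.7 (isoform 1), -0.65 (isoform 9), -0.63 (isoform 2), -0.43 (isoform 10), -0.36 (isoform 3) and -0.31 (isoform 12). All 9 held under every alternative. In isoforms 4, 5 and 6 the values were -0.01, 0.13 and 0.03, with adjusted p of at least 0.252, and isoforms 4-6 differed from isoforms 1-3 by 0.61 ± 0.1 in the class model (limma adjusted p = 0.00349).

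SLC29A1 (ENT1), the SLC29A member with the highest mean TPM, had 78.7, 76.9 and 79 TPM in parental cells. It had 49, 54.1 and 48.2 TPM in isoform 1 and 57.2, 55 and 50.3 in isoform 2. The libraries of these lines were below those of every other group. The log2 fold changes were -0.62 ± 0.0601 and -0.52 ± 0.0601 (SE, n = 3; limma adjusted p = 3e-10 and 1.34e-08), and isoform 10 was at -0.24. SLC29A2 (ENT2), with a mean of 30.5 TPM, had -0.35 in isoform 1, which did not pass with median-of-ratios scaling (adjusted p = 0.0557). SLC29A3 (ENT3, of lysosomes), with a mean of 7.08 TPM, was lower in isoforms 1, 2 and 7 and higher in isoform 4, by -0.43, -0.32, -0.31 and 0.4.

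The folate and thiamine carriers differed. SLC19A1, the reduced folate carrier, went from 36.1 TPM in parental cells to 27 in isoform 2, a log2 fold change of -0.41 (limma adjusted p = 9.97e-06), and was also lower in isoforms 1, 8 and 10 under every alternative. SLC19A2 (a thiamine carrier) had group means from 19.6 to 22.9 TPM and passed in no line. SLC19A3, the other thiamine carrier, was under the filter, at 0.253, 0.183 and 0.192 TPM in parental cells. It had 1.46, 1.11 and 1.08 TPM in isoform 1 and 0.743, 0.844 and 0.847 in isoform 7, none overlapping with the parental libraries. Fitted with no filter, its log2 fold change was 0.87 ± 0.0565 in isoform 1 and 0.58 ± 0.0565 in isoform 7 (SE, n = 3; limma adjusted p = 1.05e-12 and 8.44e-09).

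SLC28A1 (CNT1), the sodium-coupled pyrimidine nucleoside carrier of gut and kidney epithelium, was another gene under the filter that was high in isoforms 1 and 2. Parental libraries had 0.362, 0.258 and 0.262 TPM, isoform 1 had 2.9, 3.19 and 3.09, and isoform 2 had 1.74, 1.84 and 2.06. No library of the other 10 lines was above 0.864 TPM. With no filter it was called higher, by 1.65 ± 0.0828 in isoform 1 and 1.15 ± 0.0828 in isoform 2 (SE, n = 3; limma adjusted p = 4.5e-15 and 1.14e-11). In isoforms 7 and 10 it was 0.4 and 0.34 (adjusted p = 0.000743 and 0.00492).

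**Figure D4:**
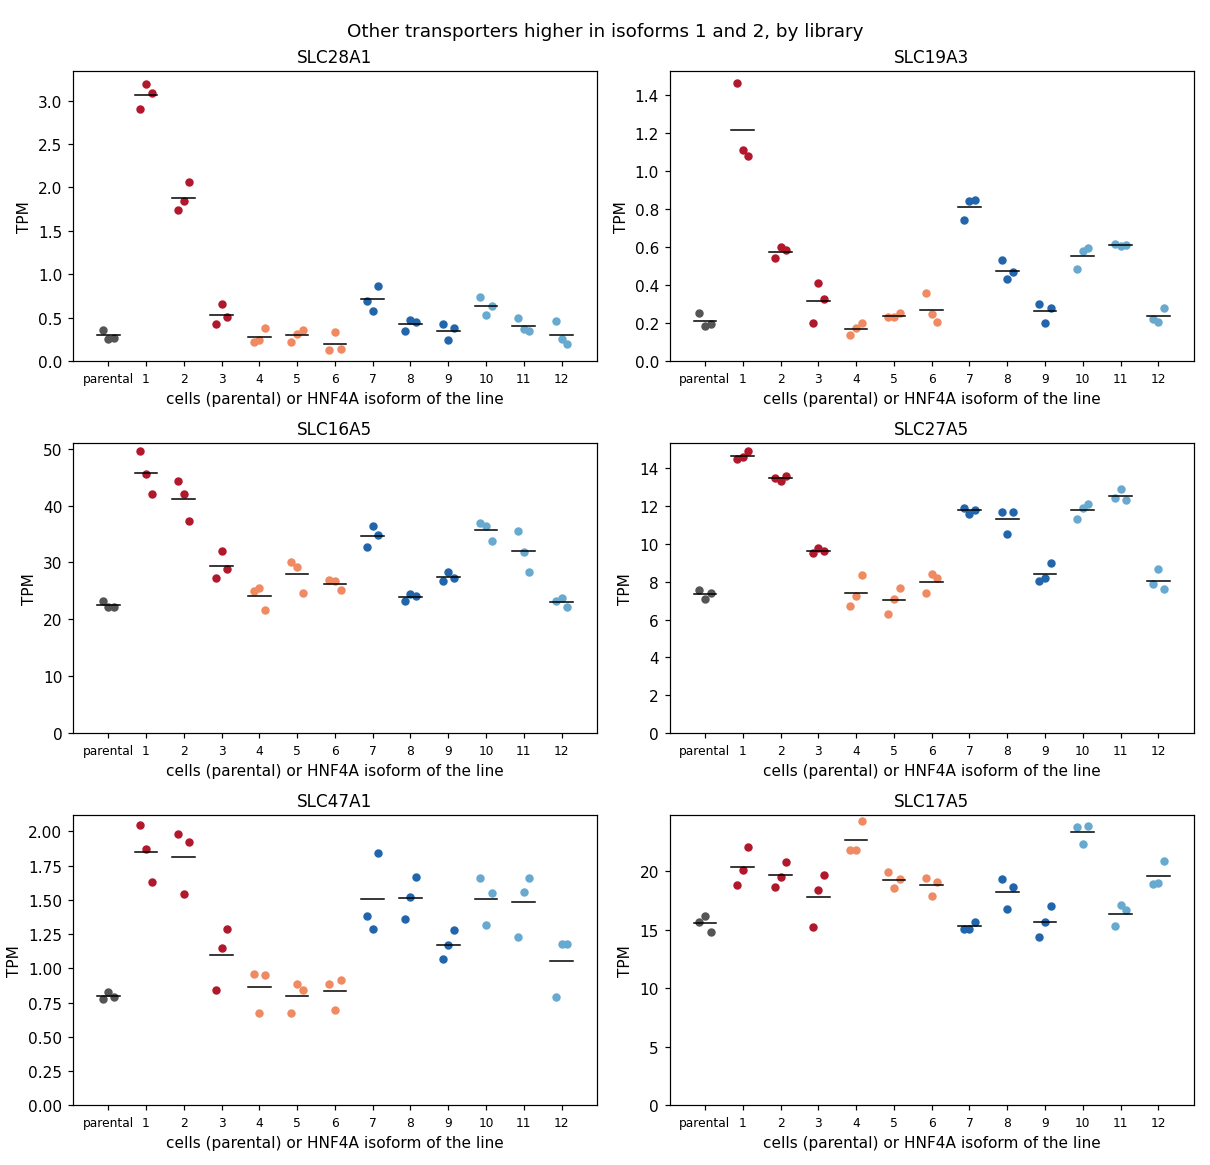
TPM of SLC28A1, SLC19A3, SLC16A5, SLC27A5, SLC47A1 and SLC17A5 in each library, by group, with a bar at the mean of 3 and colours by N-terminal form. The first 5 are highest in isoform 1, SLC28A1 at a mean of 3.06 TPM and SLC16A5 at 45.8, whereas SLC17A5 is highest in isoform 10, at 23.3 TPM.

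Several organic ion carriers had lower values, and they were named after their values were seen. SLCO4A1 (OATP4A1), a broadly expressed carrier of thyroid hormone and prostaglandins, had 23.5, 22.9 and 23.2 TPM in parental cells, 13.8, 13.5 and 13.2 in isoform 1 and 13.4, 12.5 and 13.4 in isoform 2. The log2 fold changes were -0.74 and -0.78 (limma adjusted p = 7.16e-13 and 3.01e-13). It was lower in 10 lines, 7 of them under every alternative, and isoforms 4 and 5 did not pass. SLCO1B3, a liver uptake carrier with a variant known from colon tumours, had a mean of 2.27 TPM in parental cells and 1.08 in isoform 7, a change of -0.66 (adjusted p = 0.000176). It was lower in isoforms 7, 8, 9 and 11, in isoform 7 alone under every alternative, and its reads may be shared with the near copy SLCO1B7.

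SLC22A31, an SLC22A member of unsettled substrate, went both ways. It had 15.2, 13.6 and 14.3 TPM in parental cells, 7.8, 6.88 and 5.88 in isoform 1 and 8.29, 7.55 and 9.85 in isoform 7, but 18.7, 18.3 and 19.3 in isoform 5. Its log2 fold change was -0.97 ± 0.108 (isoform 1), -0.78 (isoform 2) and -0.69 in isoform 7 (SE, n = 3; largest limma adjusted p = 5.3e-06). It was lower in 6 lines under every alternative, and isoform 1 crossed the minimum without parental replicate 2 (-1.01) or without isoform 1 replicate 1 (-1.06). The higher values, 0.36 (isoform 5) and 0.29 in isoform 10 (adjusted p = 0.0199 and 0.0318), did not pass when certain single libraries were left out. SLC22A17 was lower in 7 lines, by -0.62 (isoform 1) and -0.61 (isoform 7), and SLC22A5 (OCTN2, the carnitine carrier) in 6 lines by at most 0.3 in size, none of them under every alternative.

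Of the sodium-coupled carriers, SLC23A2 (a vitamin C carrier) had 6.28, 6.42 and 6.17 TPM in parental cells and 3.43, 3.94 and 3.76 in isoform 8. Its log2 fold change there was -0.63 ± 0.0869 (SE, n = 3; limma adjusted p = 1.22e-06). It was lower in 10 lines, 7 of them under every alternative, and only in isoform 9 did a library (6.32 TPM) lie within the parental range. SLC13A4, a sulfate carrier, had 1.39, 1.75 and 1.9 TPM in parental cells and 0.384, 0.414 and 0.38 in isoform 2, a change of -0.94 ± 0.106 (adjusted p = 9.64e-09). It was lower in 7 lines, 4 of them under every alternative, and with a pseudocount of 0.1 TPM it was called lower in isoforms 1, 2 and 7. SLC17A5 (sialin, the lysosomal sialic acid exporter) was higher in 8 lines, 6 of them under every alternative, and it was at 23.8, 22.3 and 23.9 TPM in isoform 10 against 15.7, 16.2 and 14.8 in parental cells (0.55, adjusted p = 5.25e-07). SLC15A4, SLC19A2, SLC10A7, SLC16A10, SLC16A6 and SLC23A3 passed in no line.

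**Figure D5:**
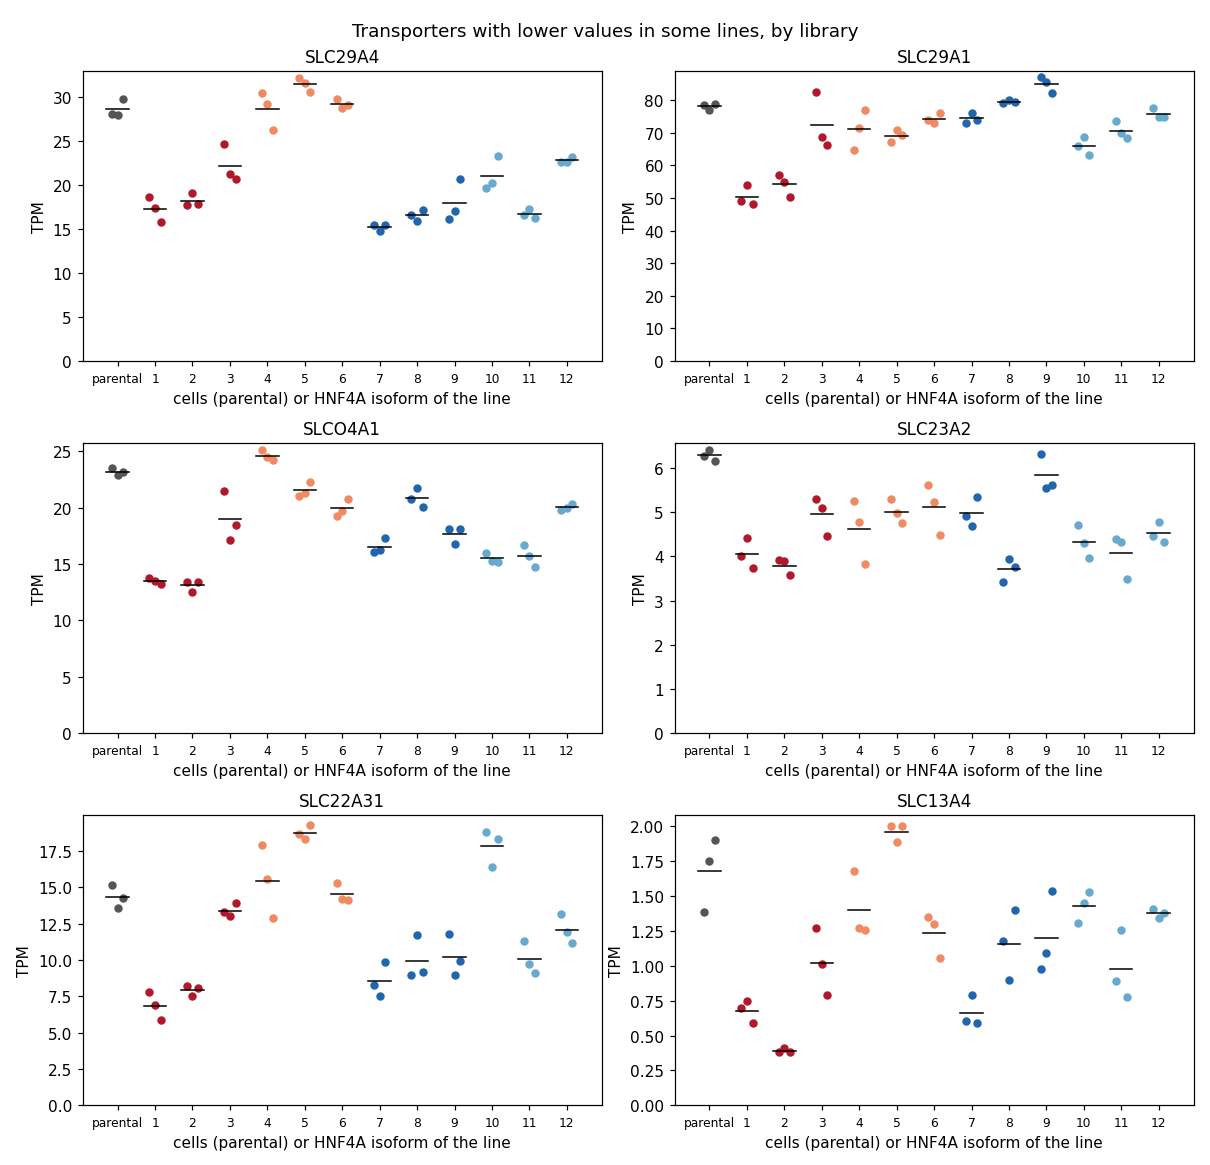
TPM of SLC29A4, SLC29A1, SLCO4A1, SLC23A2, SLC22A31 and SLC13A4 in each library, by group, with a bar at the mean of 3 and colours by N-terminal form. SLC29A4 is lowest in isoform 7 (15.3 TPM against 28.6 in parental cells), SLC29A1 is lowest in isoforms 1 and 2, and SLC22A31 has means of 15.5, 18.8, 14.5 and 17.8 TPM in isoforms 4, 5, 6 and 10, above the parental mean of 14.4.

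The bile acid carriers SLC10A1, SLC10A2 and SLC51B were sparse in these cells. Members of the SLCO family, which also carries bile acids, are described above. SLC10A1 and SLC10A2, the hepatic and ileal uptake carriers, had means of 0.0323 and 0.00796 TPM. The tested members of their family were SLC10A3 at 21.9, SLC10A4 at 13.5, SLC10A7 at 4.76 and SLC10A5 at 1.79 TPM, none of them changing by more than 0.46 in size. SLC51B was at 0.774, 1.06 and 0.813 TPM in parental cells, with group means from 0.377 in isoform 4 to 1.16 in isoform 8. With no filter it passed only in isoform 4, at -0.45 (limma adjusted p = 0.0187). Its partner SLC51A, which the gene names chosen do not include, had 0.589, 0.615 and 0.626 TPM in parental cells and 0.946, 1.18 and 1.49 in isoform 1, a change of 0.45 (adjusted p = 0.0136).

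Of the 53 transporters under a mean of 1 TPM, 5 reached a mean of 1 TPM in some group: SLC28A1, SLC19A3, SLC51B, SLC22A4 (OCTN1, at most 1.14 TPM, in isoform 7) and SLC17A7 (at most 1.17 TPM, in isoform 5). In 32 the highest group mean was under 0.1 TPM, and SLC17A2, SLC22A24 and SLC13A2 were listed at 0 in all 39 libraries. The renal and hepatic drug carriers SLC22A2 (OCT2) at a mean of 0.000766 TPM, SLC22A6 (OAT1) at 0.000712, SLC22A8 (OAT3) at 0.00391, SLCO1B1 at 0.0252 and the peptide carrier SLC15A1 (PEPT1) at 0.0695 were among the low ones. Others, by family, were SLC10A6, SLC13A1, SLC13A3, SLC13A5, SLC15A2, SLC15A3, SLC15A5, SLC16A4, SLC16A11, SLC16A12, SLC17A1, SLC17A3, SLC17A4, SLC17A6, SLC17A8, SLC22A3, SLC22A7, SLC22A9 to SLC22A14, SLC22A16, SLC22A25, SLC23A1, SLC28A2, SLC28A3, SLCO1A2, SLCO1B7, SLCO1C1, SLCO2A1, SLCO3A1, SLCO4C1, SLCO5A1 and SLCO6A1. Depth per library is unknown from TPM, so no lower limit of detection can be given.

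Genes that act with these transporters were taken from a list of 53 (chaperones, enzymes that use the substrates, efflux pumps, scaffolds and regulators), of which 38 were tested. The list was chosen with earlier results of these data known. The numbers called were 9 (isoform 1), 8 (isoform 2), 5 each in isoforms 3, 10 and 11, 3 (isoform 8), 2 (isoform 12), 1 (isoform 4) and 0 in isoforms 5 and 6, all higher. In isoform 7, 4 were called higher and 1 lower, and in isoform 9, 2 higher and 1 lower. The 9 and 8 of isoforms 1 and 2 are 23.7% and 21.1% of the list, beside 4.52% and 3.73% of all tested genes. ACSL5, BAAT and NR1I3, at 0.55, 0.349 and 0.884 TPM in parental cells, passed the filter through lines in which they are high, so these counts are no support for the list. Without these, isoforms 1 and 2 had 6 and 5 called, and isoforms 3 and 10 had 2 each. The median log2 fold change of the list was 0.035 (isoform 1) and 0.04 (isoform 2), against -0.107 and -0.0899 for all genes. For fatty acids, the long-chain acyl-CoA synthetase ACSL5 went from 0.526, 0.64 and 0.485 TPM in parental cells to 110, 93.9 and 111 in isoform 1 and was called in 9 lines, with 6.09 ± 0.11 in isoform 1 (SE, n = 3; limma adjusted p = 3.95e-27). Isoforms 4, 5 and 6 were the lines without that call.

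For bile acids, BAAT, which joins them to taurine or glycine, went from 0.349 to 25.7 TPM in isoform 1 (4.3, limma adjusted p = 1.24e-19) and was called in 7 lines. The canalicular pump ABCC2 was called in isoforms 1 and 2, at 1.18 and 1.49. FGF19, the gut hormone that restrains bile acid synthesis, was higher in isoform 4 (19.9 against 9.37 TPM, 1.01) and lower in isoforms 7 and 9 (3.07 and 3.31 TPM, -1.35 and -1.29). The efflux pump ABCG2 was called in 9 lines, from 1.05 in isoform 12 to 2.88 in isoform 1. The scaffold SLC9A3R1, which anchors transporters at the apical membrane, was called in isoforms 1, 2, 10 and 11, at 2.01, 1.85, 1.33 and 1.2.

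Among enzymes that use the carried substrates, LDHA, which makes lactate from pyruvate, went from 625 to 1650 TPM in isoform 1 (1.4) and was called in isoform 2 as well (1.13). CDA, which deaminates cytidine, was called in isoforms 1, 2, 3, 7 and 11, at 2.54, 2.34, 1.33, 1.39 and 1.27. CRAT, the carnitine acetyltransferase, was called in isoform 1 (1.2). The nuclear receptor NR1I3 (CAR), a regulator of drug transport, was called in isoforms 1, 2, 3 and 10, at 3.49, 2.84, 1.68 and 1.09. BSG, the chaperone of SLC16A1 and SLC16A3, had group means between 587 and 660 TPM.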

How the data were processed

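Poly(A)-enriched RNA of 39 libraries, 3 for each of 13 groups, was sequenced from strand-specific libraries (per the labels' protocols). The authors deposited 1 table per group with TPM per gene and library, per the file headers. The TPM columns summed to between 999972.6 and 999987.7 in each library, so the tables share 1 scale, and read depth per library is unknown. For each line the authors also deposited their own log2 fold change and adjusted p-value against parental cells, per the file headers. These entered no fit and were used only where the authors' deposited tables are named. The submitters' processing notes name FastQC 0.11.5, Trimmomatic 0.36, kallisto 0.44.0, DESeq2 1.22.2 and GRCh38.p12, with no roles given.

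Library columns were assigned by names that the labels repeat. For isoforms 4 and 5 the labels give a group but no replicate number. In the isoform 4 and 5 tables, 29 gene names differed from the parental table, so rows were matched by their order. The rows of the HNF4A isoforms were summed.

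The 15003 genes averaging 1 TPM or more were fitted on log2(TPM + 1) with limma 3.58.1 in R 4.3.3, as 13 group means with 26 residual degrees of freedom. The class model was fitted to the 12 line means, with 6 residual degrees of freedom. P-values were adjusted by the Benjamini-Hochberg method within a comparison. The fits were tested on simulated data. Alternatives were a pseudocount of 0.1, a filter of 5 TPM or none, median-of-ratios scaling, no minimum change, fits of 1 line with the parental cells, a replicate block and leaving out libraries or lines. Promoter windows are from RefSeq (GRCh38.p14) and gene positions from the GENCODE annotation of GRCh38.

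The transporters and the lists were chosen with earlier results of these data known. The genes named are those called in a line or class, the tested SLC16A, SLC27A, SLC29A and SLC19A members, those under 1 TPM that reach it in a group, SLC51B with SLC51A, and the listed partners called in a line. Others were named after their values were seen. Some members under 1 TPM are not reported here by name.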

Additional observations from a re-analysis of the deposited data

Results flagged for a closer look

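The results singled out are 4 differences between isoform classes that passed the test of the difference itself, in the additive limma model of the 12 line means. Isoforms 4-6 were lower than isoforms 1-3 in SLCO2B1 by -2.55 on the log2(TPM + 1) scale (adjusted p = 0.00398), in SLC47A2 by -1.59 (adjusted p = 0.0012) and in SLC22A18 by -1.28 (adjusted p = 0.000816). Isoforms 7-9 were lower than isoforms 1-3 in SLC22A18 by -1.07 (adjusted p = 0.00509). This last call was lost when the line of isoform 1, 2, 7 or 8 was left out, and without the filter on low values. SLCO2B1 and SLC47A2, at 0.0348 and 0.438 TPM in parental cells, entered the test only through lines in which they are high. For SLCO2B1 these lines do not include isoforms 3, 9 and 12, with means of 0.828, 0.124 and 0.145 TPM. The differences of SLCO2B1 and SLC47A2 are therefore descriptions of the members that passed the filter. HNF4A had group means of 852 to 1070 TPM in isoforms 4-6 and 733 to 948 in isoforms 7-9, against 614 to 782 in isoforms 1-3, and its part in the differences was not tested. Groups of 3 libraries were not tested for single outlying libraries.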

How the results depend on the processing

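The 17 called gene and line pairs kept their direction and their call in every alternative in which the gene was tested. A filter of 5 TPM removes SLCO2B1 and SLC47A2, which left 2 called transporters in isoforms 1 and 2, 0 in isoforms 7, 8, 10 and 11, and 1 between isoforms 4-6 and 1-3. A pseudocount of 0.1 gave 8, 6, 3 and 4 in isoforms 1, 2, 3 and 7, 1 in isoforms 9 and 12, and 5 between isoforms 4-6 and 1-3. Among the calls it added against parental cells, SLC13A4 (isoforms 1, 2 and 7), SLC22A31 (isoform 1) and SLCO1B3 (isoform 7) were lower. The shares of all tested genes called with a filter of 5 TPM or a pseudocount of 0.1 were not taken, so these numbers are no result about the transporters as a set. Without a filter, 0 were called between isoforms 7-9 and 1-3. With no minimum change, the numbers for isoforms 1 to 12 were 31, 31, 13, 9, 8, 3, 20, 19, 14, 17, 21 and 10, with 23 between isoforms 4-6 and 1-3 and 5 between isoforms 7-9 and 1-3. The shares of all tested genes at that setting are given above for the lines and were not taken for the classes. Leaving out 1 library gave 1 to 2 in isoform 3, where SLC47A2 was called once replicate 1 was left out. Leaving out 1 line gave 3 to 5 between isoforms 4-6 and 1-3, 0 to 2 between isoforms 7-9 and 1-3, and 0 to 1 for the short C-terminus. For the fits without a filter and those leaving out a library or line, the shares of all tested genes were not taken either. The causes were not tested beyond what each alternative removes. Of the 196 pairs at an adjusted p under 0.05, none changed direction under any alternative, and 134 stayed under it in all. Whether same-numbered libraries of different groups share more than a number is not stated in the labels. Of 165 correlations of their deviations between groups, 38 were above 0.1, the median was 0.0542 and the highest was 0.232. With the replicate block, the called transporters numbered 4 in isoforms 1 and 2, 1 in isoform 3, 2 in isoforms 7, 8, 10 and 11, and 0 in isoforms 6, 9 and 12, and the calls over all genes in isoform 1 went from 680 to 678. Depth is unknown from TPM, so no value carries a counting interval.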

Other observations

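Among the transporters under the filter, SLC22A7 (OAT2), the hepatic carrier of organic anions and nucleobases, had 0.0954, 0.0604 and 0.0139 TPM in parental cells, 0.561, 0.325 and 0.39 in isoform 1 and 0.396, 0.481 and 0.38 in isoform 2. In the authors' deposited tables the log2 fold change of SLC22A7 was 1.87 in isoform 1 and 1.71 in isoform 2, with adjusted p-values of 3.84e-07 and 3.01e-07. For SLC19A3 the authors' deposited tables give 2.33 (isoform 1), 1.41 (isoform 7), 1.23 (isoform 2) and 1.05 (isoform 11). These levels are low and depth is unknown. The antisense RNA SLCO4A1-AS1 overlaps SLCO4A1 on the opposite strand, and whether the quantification used strand is not given in the sources used here, so reads of the pair may not be told apart. It had 0.976, 1.03 and 0.551 TPM in parental cells and 0.365, 0.492 and 0.129 in isoform 1, a log2 fold change of -0.48 with no filter (limma adjusted p = 0.00486). In isoforms 6, 7, 8 and 12, where SLCO4A1 was lower, the antisense RNA did not pass (limma adjusted p = 0.516, 0.0911, 0.425 and 0.212).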
